A study of Mus musculus with 24 samples.

Results

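Transcription factor genes that pattern the midbrain and hindbrain of the embryo, 10 in all, were followed in motor neuron cultures derived from mouse embryonic stem cells (mESCs): *En1*, *En2*, *Otx1*, *Otx2*, *Pax2*, *Pax5*, *Pax8*, *Gbx2*, *Lmx1b* and *Egr2*. They were chosen by name as regional factors of the midbrain, its boundary with the hindbrain and the hindbrain segments. All 10 were found among the 22889 gene entries of the deposited table, and all 10 passed the filter on low values in every comparison. Oculomotor (OMN) cultures came from an *Islet1*-GFP/*NesEPhox2a* mESC line, in which *Phox2a* is over-expressed in progenitors under a nestin enhancer, and were patterned for 5 days with 250 nM of the Smoothened agonist SAG and 100 ng/ml Fgf8. Spinal (SC) cultures came from an *Hb9*-GFP line and were patterned for 5 days with 500 nM SAG and 100 nM retinoic acid. Each culture was sorted by FACS into a GFP positive and a GFP negative fraction, giving 4 groups of 6 samples. The line, the reporter, the *Phox2a* transgene and the morphogens changed together between the cultures, so their parts in a difference between cultures cannot be told apart. Nothing in the labels says whether the replicates of a group came from separate differentiations, and p values measure the spread between these samples only.

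In the embryo, *Otx2* is expressed in the forebrain and midbrain and *Gbx2* in the anterior hindbrain, and the border between them places the isthmic organizer, a signaling center that secretes Fgf8 and Wnt1. *En1*, *En2*, *Pax2*, *Pax5* and *Pax8* are expressed around that border and *Lmx1b* helps to maintain the organizer, whereas *Egr2* (also known as Krox20) marks hindbrain segments. Oculomotor neurons arise in the midbrain, on the *Otx2* side of the border, and spinal motor neurons arise caudal to the whole system. Several of the factors have other uses: *Otx2* and *Gbx2* are also expressed in pluripotent and epiblast cells, and *En1*, *Pax2*, *Pax8* and *Lmx1b* in spinal interneurons.

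The sort and the depth were examined first. *Isl1*, a LIM homeodomain factor of motor neurons, lay between 141 and 369 RPKM (reads scaled to transcript length and to the mapped reads of the library) in OMN GFP positive samples and between 0.696 and 1.87 RPKM in OMN GFP negative samples. *Mnx1*, the gene known as Hb9, lay between 43.1 and 149 RPKM in SC GFP positive samples and at 69.4 RPKM in the library labelled SC GFP negative replicate 4. In spinal pair 4 the fractions were therefore not separated, with *Isl1* at 7.63 RPKM in the positive and 8.56 RPKM in the negative library, and results were also computed without this pair. In SC GFP negative replicate 2, the 10 highest entries took 76.26% of the summed RPKM. Mean *Phox2a* was 25.7 RPKM in OMN GFP positive, 4.39 in OMN GFP negative, 1.78 in SC GFP positive and 0.659 in SC GFP negative samples, and the table does not separate the transgene from the endogenous gene. The depth, inferred from what a single read was worth in RPKM, was 752529 to 4642207 reads in replicates 1 to 4 and 4822576 to 7675428 reads in replicates 5 and 6. At this depth 1 read on *En1* was worth 0.131 RPKM in OMN GFP negative replicate 1, and differences among values of that size were not detectable.

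**Figure D1:**
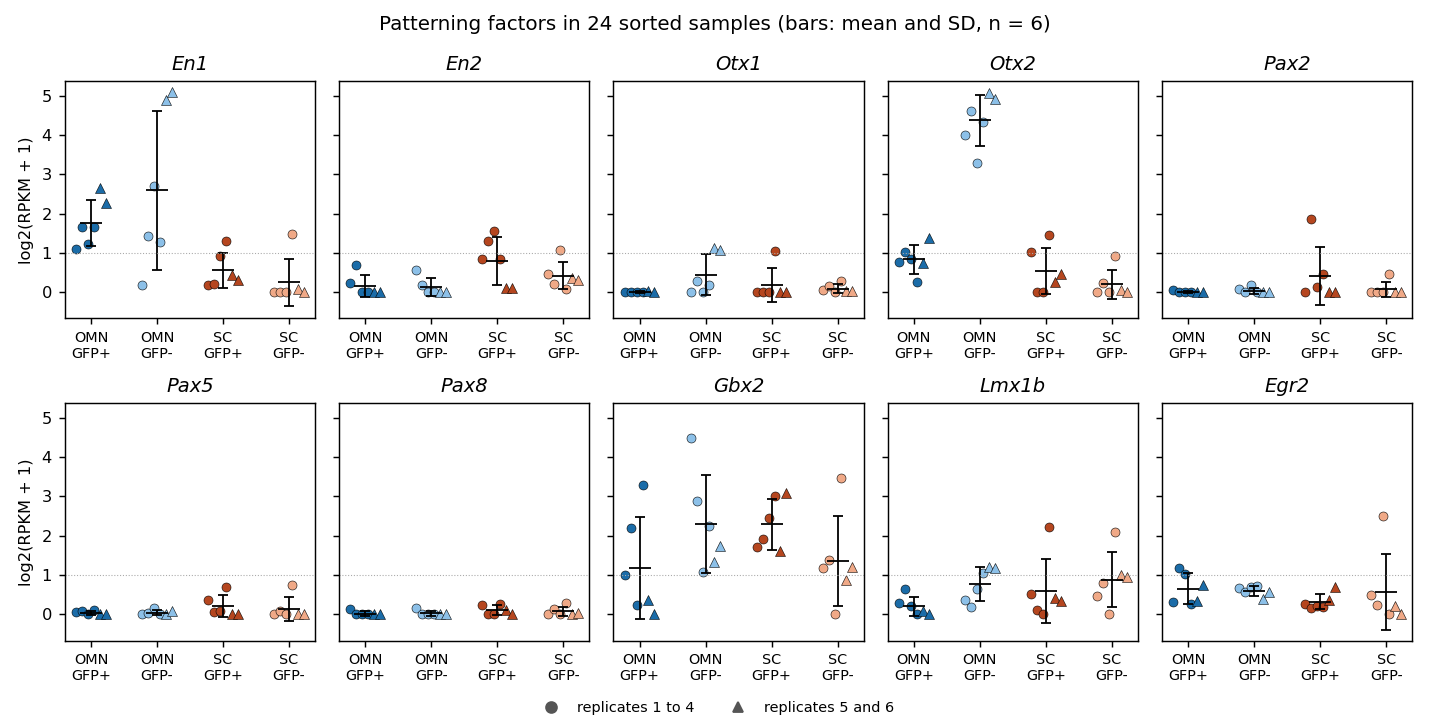
Each point is 1 sample, plotted as log2(RPKM + 1) for the 10 factors in 4 groups of 6, with bars for the mean and SD; circles are replicates 1 to 4, triangles replicates 5 and 6, and the dotted line marks 1 RPKM. *Otx2* stands apart in the OMN GFP negative samples, between 8.84 and 32.2 RPKM, while *Pax5* and *Pax8* stay under 1 RPKM in all 24 samples.

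*Otx2*, which specifies the forebrain and midbrain, had the clearest pattern of the 10. In OMN GFP negative samples it ranged from 8.84 RPKM in replicate 3 over a median of 21.4 to 32.2 in replicate 5. In OMN GFP positive samples it ranged from 0.208 over a median of 0.752 to 1.62 RPKM. In spinal samples the highest value was 1.73 RPKM, in GFP positive replicate 4, and 5 of the 12 samples were listed at 0. The 6 OMN GFP negative samples thus lay above all 18 others with no overlap. The order of the group means was 21.3 ± 8.74 (SD, n = 6) in OMN GFP negative, 0.844 ± 0.467 in OMN GFP positive, 0.562 ± 0.693 in SC GFP positive and 0.186 ± 0.356 RPKM in SC GFP negative samples, and the ranges of the last 3 overlapped.

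*Otx1*, the paralog of *Otx2* that is used later in the midbrain and cortex, was close to absent. It passed 1 RPKM in 3 of 24 samples, with 1.19 and 1.10 RPKM in OMN GFP negative replicates 5 and 6 and 1.09 RPKM in SC GFP positive replicate 4. In the OMN GFP positive group 5 of 6 samples were listed at 0 and the remaining one was at 0.0289 RPKM. Within every OMN sample *Otx2* was above *Otx1* in RPKM, which is per length.

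*Gbx2*, the factor of the anterior hindbrain that opposes *Otx2* at the border, was the most widely detected member, above 1 RPKM in 18 of 24 samples. In SC GFP positive samples it ranged from 2.03 over a median of 3.64 to 7.42 RPKM. In SC GFP negative samples it ranged from 0 over a median of 1.28 to 10.2 RPKM, the highest being in the unseparated pair 4. In OMN GFP negative samples it ranged from 1.12 over a median of 3.06 to 21.4 RPKM, with the highest value in replicate 1. In OMN GFP positive samples it ranged from 0 over a median of 0.639 to 8.77 RPKM. All 4 groups overlapped, and the means of the OMN groups were 6.08 ± 7.72 in GFP negative and 2.31 ± 3.44 RPKM in GFP positive samples (SD, n = 6).

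Set side by side within a sample, *Gbx2* exceeded *Otx2* in all 6 SC GFP positive samples and in 5 of 6 SC GFP negative samples, the other one being listed at 0 for both. In OMN GFP negative samples *Otx2* exceeded *Gbx2* in 5 of 6, the exception being replicate 1 with 15.1 RPKM of *Otx2* and 21.4 RPKM of *Gbx2*. In OMN GFP positive samples each was the higher one in 3 of 6.

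**Figure D2:**
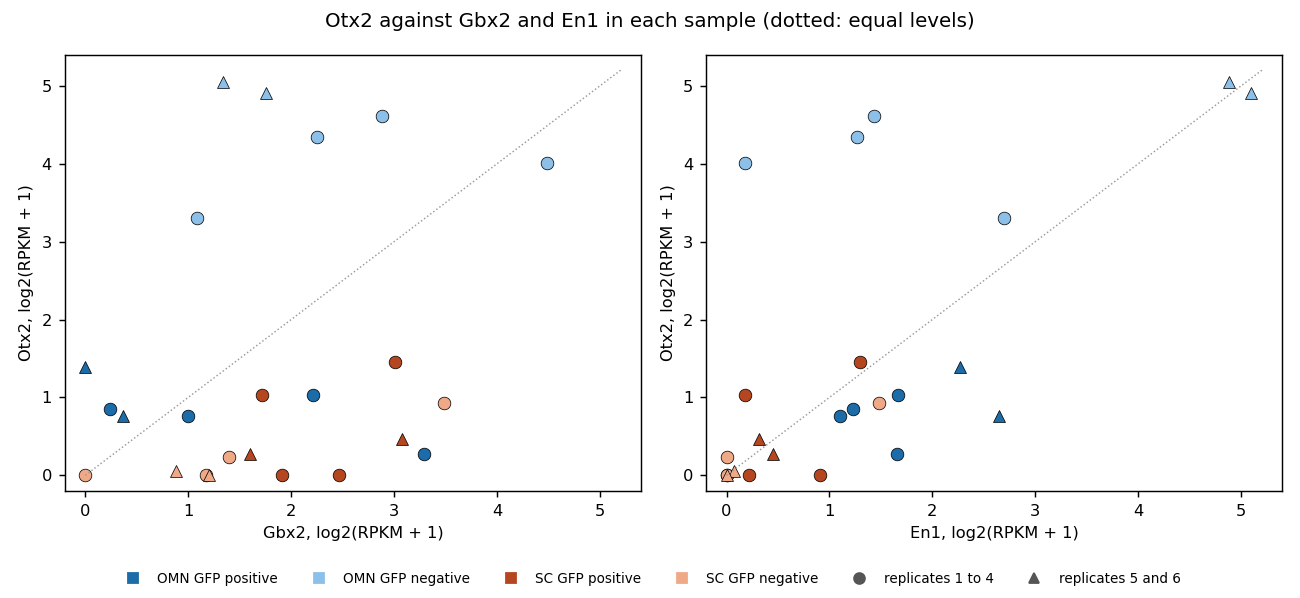
*Otx2* (vertical axes) is plotted against *Gbx2* (left) and *En1* (right) as log2(RPKM + 1), 1 point per sample, with colors for the 4 groups and a dotted line of equal levels. The OMN GFP negative samples lie high on the *Otx2* axis at *Gbx2* levels from 1.12 to 21.4 RPKM, and their replicates 5 and 6 (triangles) also lie far out on the *En1* axis, at 28.5 and 33.2 RPKM.

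*En1*, a homeodomain factor of the midbrain and anterior hindbrain that is also used in spinal interneurons, was above 1 RPKM in all 6 OMN GFP positive samples, ranging from 1.15 over a median of 2.16 to 5.25 RPKM. In SC GFP positive samples it ranged from 0.136 over a median of 0.309 to 1.46 RPKM, the highest being replicate 4. Among the 6 OMN GFP positive samples, 4 were above all SC GFP positive samples, and the groups overlapped. In OMN GFP negative samples it spread from 0.131 RPKM in replicate 1, which is 1 read, to 28.5 and 33.2 RPKM in replicates 5 and 6, with 1.41 to 5.45 RPKM in replicates 2 to 4. In SC GFP negative samples 4 of 6 were listed at 0, replicate 5 was at 0.054 and replicate 4 at 1.79 RPKM.

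*En2*, its paralog, did not share this pattern. It was listed at 0 in 4 of 6 samples of each OMN group, where the highest value was 0.614 RPKM, and in none of the spinal samples, where it ranged from 0.0736 over a median of 0.801 to 1.96 RPKM in the GFP positive and from 0.0665 over a median of 0.26 to 1.13 RPKM in the GFP negative fraction. *En1* was above *En2* in all 6 OMN GFP positive samples and in 3 of 6 SC GFP positive samples.

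*Lmx1b*, a LIM homeodomain factor of the organizer that is also needed for midbrain dopaminergic and for serotonergic neurons, was low in every group. It ranged from 0 over a median of 0.112 to 0.556 RPKM in OMN GFP positive, and from 0.144 over a median of 0.818 to 1.32 RPKM in OMN GFP negative samples. In the spinal groups the highest values, 3.67 RPKM in the positive and 3.28 RPKM in the negative fraction, were both in pair 4, and the medians were 0.303 and 0.825 RPKM.

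The paired box genes *Pax2*, *Pax5* and *Pax8*, which act together at the border, were at or near 0. *Pax2* was listed at 0 in 17 of 24 samples and passed 1 RPKM in SC GFP positive replicate 2 alone (2.62 RPKM). *Pax5* was listed at 0 in 12 samples with a highest value of 0.691 RPKM, and *Pax8* in 16 samples with a highest value of 0.233 RPKM. *Egr2*, the zinc finger factor of hindbrain segments, was detected in 22 of 24 samples at medians of 0.479, 0.546, 0.19 and 0.17 RPKM in OMN GFP positive, OMN GFP negative, SC GFP positive and SC GFP negative samples. Its highest value was 4.69 RPKM in SC GFP negative replicate 3. Fewer expressing cells and less RNA per cell cannot be told apart in such bulk samples.

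The comparison of the 2 motor neuron types asked which of the factors separated sorted oculomotor from sorted spinal motor neurons. None of the 10 passed the limma test on log2(RPKM + 1) in a fit of the 12 GFP positive samples, where 0.603% of 19240 genes were called. By unadjusted p, 2 of the 10 were under 0.05, against 10.1% of all genes. *En1* had a log2 difference of 1.20 (SE 0.34, adjusted p = 0.18), with 0.76 in replicates 1 to 4 and 2.07 in replicates 5 and 6. The paper names *En1* among the oculomotor-enriched genes of its own DESeq2 comparison, which needs counts and was not run here. That comparison called more genes than the limma fit, so a missing call here cannot be set against it. With PAGODA, a gene set method, the paper also places *En1* among genes enriched in both fractions of its midbrain-specified cultures. PAGODA was not run here either. *En2* had a difference of -0.64 (SE 0.25, adjusted p = 0.394), and *Gbx2* of -1.11 (95% interval -2.35 to 0.12, adjusted p = 0.55). *Otx2* differed by 0.31 with an interval of -0.30 to 0.91. The 2 groups overlapped for all 10 factors, whereas 1.43% of all genes had groups that did not overlap.

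In the GFP negative fractions, which hold the cells of each culture without reporter, *Otx2* was 4.17 log2 units higher in OMN than in SC samples (SE 0.33, adjusted p = 4.83e-08), in a fit of all 24 samples. It was the only one of the 10 called, where 0.96% of 22179 genes were, and the only one whose groups did not overlap, where 1.27% of genes did not. Among all genes tested it ranked 2 by p value and 4 by size of the increase. The change was 3.78 within replicates 1 to 4, 4.95 within replicates 5 and 6, and 4.31 without spinal pair 4. *En1* had a difference of 2.33 (SE 0.62, adjusted p = 0.0734), but 1.02 within replicates 1 to 4 and 4.95 within replicates 5 and 6, and it passed the threshold without spinal pair 4 (2.58, adjusted p = 0.0313) and without OMN GFP negative replicate 1 (2.81, adjusted p = 0.0176). The other 8 members lay between -0.30 and 0.94 and did not pass.

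**Figure D3:**
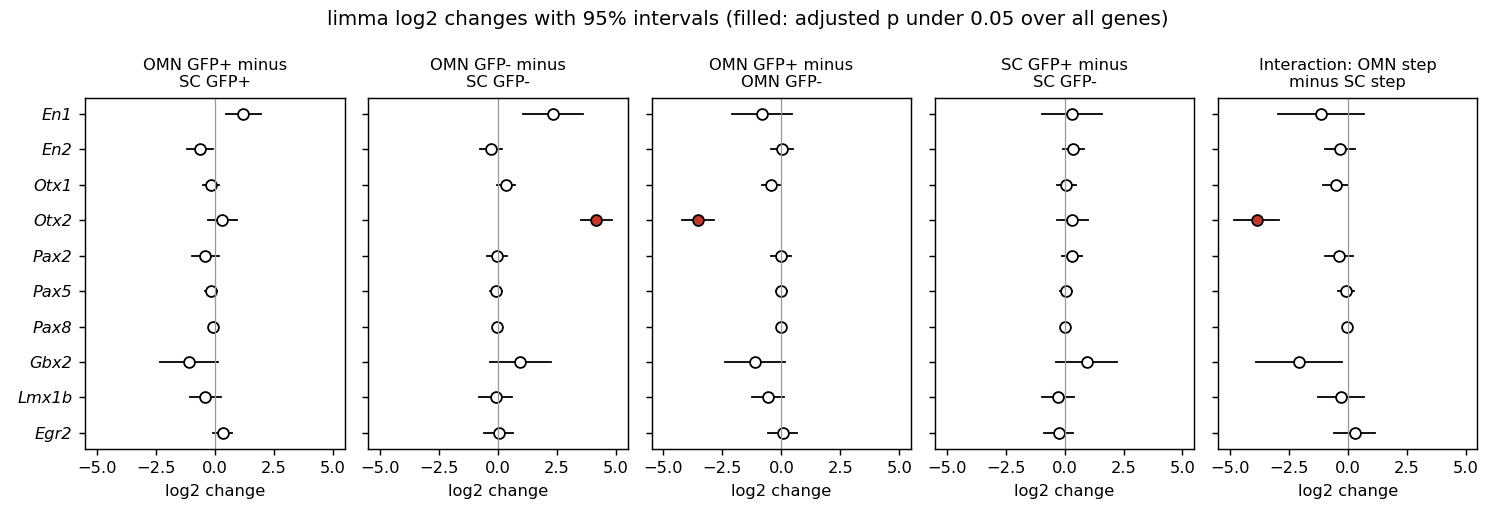
Log2 changes of the 10 factors from limma with 95% intervals, in the 4 comparisons and the interaction; filled points have an adjusted p under 0.05 over all genes. *Otx2* is the filled point in 3 panels, at 4.17, -3.53 and -3.86, and no factor is filled in the comparison of the GFP positive groups or of the spinal fractions.

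Between the fractions of the oculomotor cultures, *Otx2* fell by 3.53 log2 units from GFP negative to GFP positive cells (SE 0.33, adjusted p = 1.89e-07) and was lower in 6 of 6 pairs. It was the only member called, where 6.15% of genes were, and the only one with no overlap, where 6.52% of genes had none. The step was -3.34 in replicates 1 to 4 and -3.91 in replicates 5 and 6. *Otx1* had a step of -0.44 (adjusted p = 0.197), being lower in 4 pairs and listed at 0 in both fractions of the other 2, *Gbx2* of -1.12 (adjusted p = 0.377), lower in 5 of 6 pairs, and *Lmx1b* of -0.57 (adjusted p = 0.41), lower in 5 of 6 pairs. With sample weights in the fit, *Otx1* (-0.49, adjusted p = 0.0292) and *Gbx2* (-1.67, adjusted p = 0.0194) were called as well. *En1* had a step of -0.83 (adjusted p = 0.572), higher in 3 pairs and lower in 3, with 0.02 in replicates 1 to 4 and -2.53 in replicates 5 and 6.

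Between the fractions of the spinal cultures none of the 10 was called, where 1.23% of genes were, and none was under an unadjusted p of 0.05, where 10.4% of genes were. *Gbx2* had a step of 0.94 (SE 0.62, adjusted p = 0.665) and was higher in the GFP positive fraction in 5 of 6 pairs, the exception being pair 4. The step differed between the cultures for *Otx2* (interaction -3.86, SE 0.46, adjusted p = 5.01e-05), the only member called, where 0.32% of genes were. For *Gbx2*, whose steps were in opposite directions, the interaction was -2.06 (SE 0.88, adjusted p = 0.582). The 4 members *Pax2*, *Pax5*, *Pax8* and *Egr2* had changes between -0.40 and 0.33 in every comparison.

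**Figure D4:**
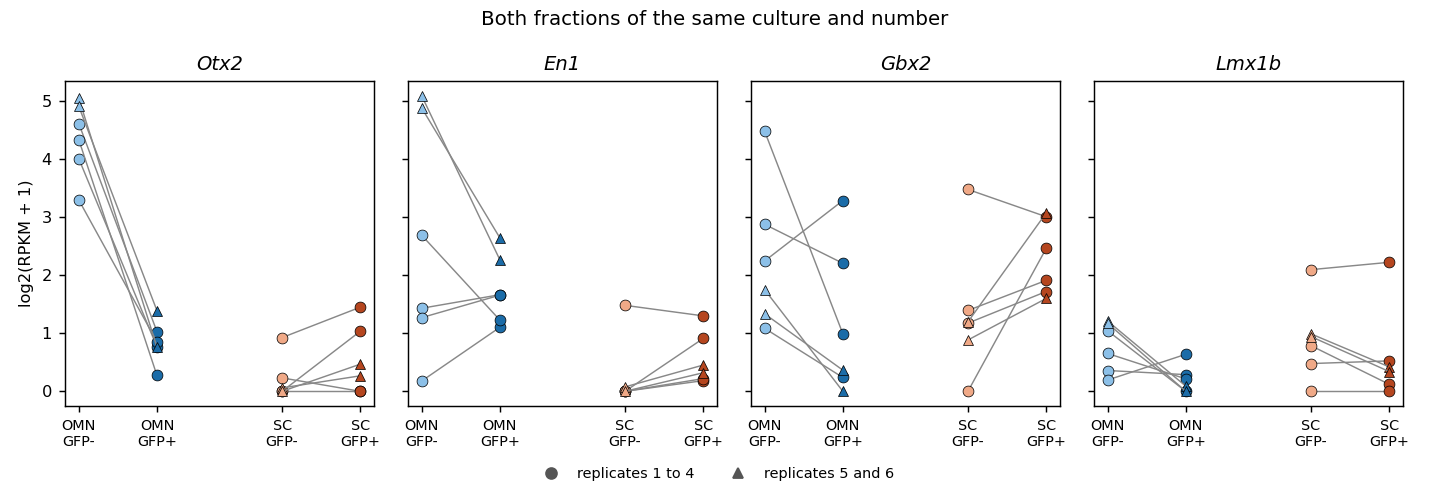
Lines join the GFP negative and GFP positive library of the same culture and number for *Otx2*, *En1*, *Gbx2* and *Lmx1b*, as log2(RPKM + 1); circles are replicates 1 to 4 and triangles replicates 5 and 6. *Otx2* drops in each of the 6 OMN pairs, and *Gbx2* is higher in the positive fraction in 5 of 6 SC pairs and lower in 5 of 6 OMN pairs.

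OMN GFP negative replicates 5 and 6 stood apart from replicates 1 to 4 in other genes than *En1*. *Lmx1a*, a factor of midbrain dopaminergic progenitors, was at 39.3 and 24.4 RPKM in them and between 0 and 2.98 RPKM in replicates 1 to 4. *Tal2*, a midbrain factor, was at 28.0 and 29.5 RPKM against 0.352 to 2.20 RPKM, and *Wnt1*, the organizer signal, at 4.36 and 3.73 against 0 to 1.03 RPKM. Other genes of the system did not stand apart upward: *Fgf8* was at 1.23 and 1.07 against 1.04 to 4.94 RPKM, *Fgf15* at 0.678 and 4.95 against 2.51 to 43.3 RPKM, and *Foxa2*, a floor plate factor, at 20.1 and 35.4 against 8.29 to 41.6 RPKM. These genes were singled out after their values were seen. *Otx2* was also highest in these replicates, at 32.2 and 29.1 RPKM, but stayed between 8.84 and 23.5 RPKM in replicates 1 to 4. The replicates also differ in depth. According to the paper, samples were sequenced on different instruments with different read lengths, and the labels do not say which replicates were run on which. The parts of depth, instrument and read length were not tested.

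The other genes of the system were taken from lists. Of 15 signals and feedback genes of the organizer, *Fgf15* was higher in OMN GFP negative than in SC GFP negative samples (log2 change 2.87, SE 0.65, adjusted p = 0.0296) and *Sp8*, a zinc finger factor, was lower in OMN than in SC GFP positive samples (-4.31, SE 0.73, adjusted p = 0.0151). The median change of the list between GFP negative fractions was 0.84 (-0.04 over all genes tested). *Fgf8* was listed at 0 in all SC GFP positive samples and *Wnt1* in all SC GFP negative samples. From OMN GFP negative to positive cells, 4 of the 15 fell (*Fgf17*, *Wnt1*, *Dusp6* and *Etv5*), where 2.34% of all genes fell. *Fgf18* rose by 3.30 (adjusted p = 3.41e-05), where 3.81% of all genes rose. The list median was -0.87 (0.00 over all genes). *Dusp6* and *Etv5*, targets of FGF signaling, fell by 1.91 (adjusted p = 0.00296) and by 2.63 (adjusted p = 0.0157). *Fgf17*, *Wnt1*, *Dusp6*, *Etv5* and *Fgf18* were named after their values were seen.

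Of 14 other midbrain factors in the table, 11 were tested between the GFP positive and 14 between the GFP negative groups, and none was called. From OMN GFP negative to positive cells *Tal2* fell by 2.20 (adjusted p = 0.0174) and *Foxa2* by 2.06 (adjusted p = 0.047), while *Pou4f1*, a POU factor of midbrain and sensory neurons, rose by 2.72 (adjusted p = 6.37e-05), with a list median of -0.18. Of 13 hindbrain segment genes, *Hoxd3* was lower in OMN than in SC cells in the positive (-2.80, adjusted p = 0.0134) and the negative fraction (-2.82, adjusted p = 0.00144), and *Hoxa3* in the negative fraction (-2.35, adjusted p = 0.0461), with list medians of -0.60 and -0.69. Of 13 caudal genes in the table, 5 were lower in OMN GFP positive than in SC GFP positive samples, where 0.249% of all genes were. In the GFP negative fraction 7 were lower, where 0.55% of all genes were, and the list medians were -2.60 and -2.49. *Hoxb5*, a cervical Hox gene, had the largest of these changes, -6.21 (SE 0.56, adjusted p = 0.000196) and -5.14 (SE 0.50, adjusted p = 2.15e-06). Of 14 forebrain genes, *Six3* was higher in OMN GFP negative cells (0.76, adjusted p = 0.0188, mean 0.867 RPKM), with a list median of 0.14.

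Markers of pluripotent and epiblast cells fell together with *Otx2* from OMN GFP negative to positive cells. In this step 8 of 10 fell, where 2.34% of all genes fell. All 10 had a negative change, with a list median of -3.77. Their summed RPKM ranged from 773 to 9903 in OMN GFP negative, 5.16 to 272 in OMN GFP positive, 16.6 to 12451 in SC GFP positive and 93.2 to 6062 in SC GFP negative samples, and *Dppa5a* made up most of it in all samples but OMN GFP positive replicate 4. *Pou5f1*, a defining marker, was between 1.29 and 49.1 RPKM in OMN GFP negative and between 0 and 1.39 RPKM in OMN GFP positive samples. *Tdgf1* was higher in OMN than in SC GFP negative samples (4.00, adjusted p = 0.0178). In the samples with the largest sums, *Otx2* was 32.2 RPKM in OMN GFP negative replicate 5 (sum 9903) and 0.204 RPKM in SC GFP positive replicate 5 (sum 12451), but without *Dppa5a* these sums were 97.2 and 122 RPKM. Without *Dppa5a* the largest sums were 810 RPKM in OMN GFP negative replicate 1, 628 in SC GFP negative replicate 4 and 573 in SC GFP positive replicate 4, where *Otx2* was 15.1, 0.9 and 1.73 RPKM. *Pou5f1* was lowest in the OMN GFP negative group in replicates 5 and 6, at 1.94 and 1.29 RPKM, the replicates with the most *Otx2*. The *Gbx2* values of 21.4 RPKM in OMN GFP negative replicate 1 and 10.2 RPKM in SC GFP negative replicate 4 were in samples with sums of 7589 and 6062 and with *Pou5f1* at 43.7 and 50.3 RPKM. The part of such cells in the *Otx2* and *Gbx2* values was not tested.

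**Figure D5:**
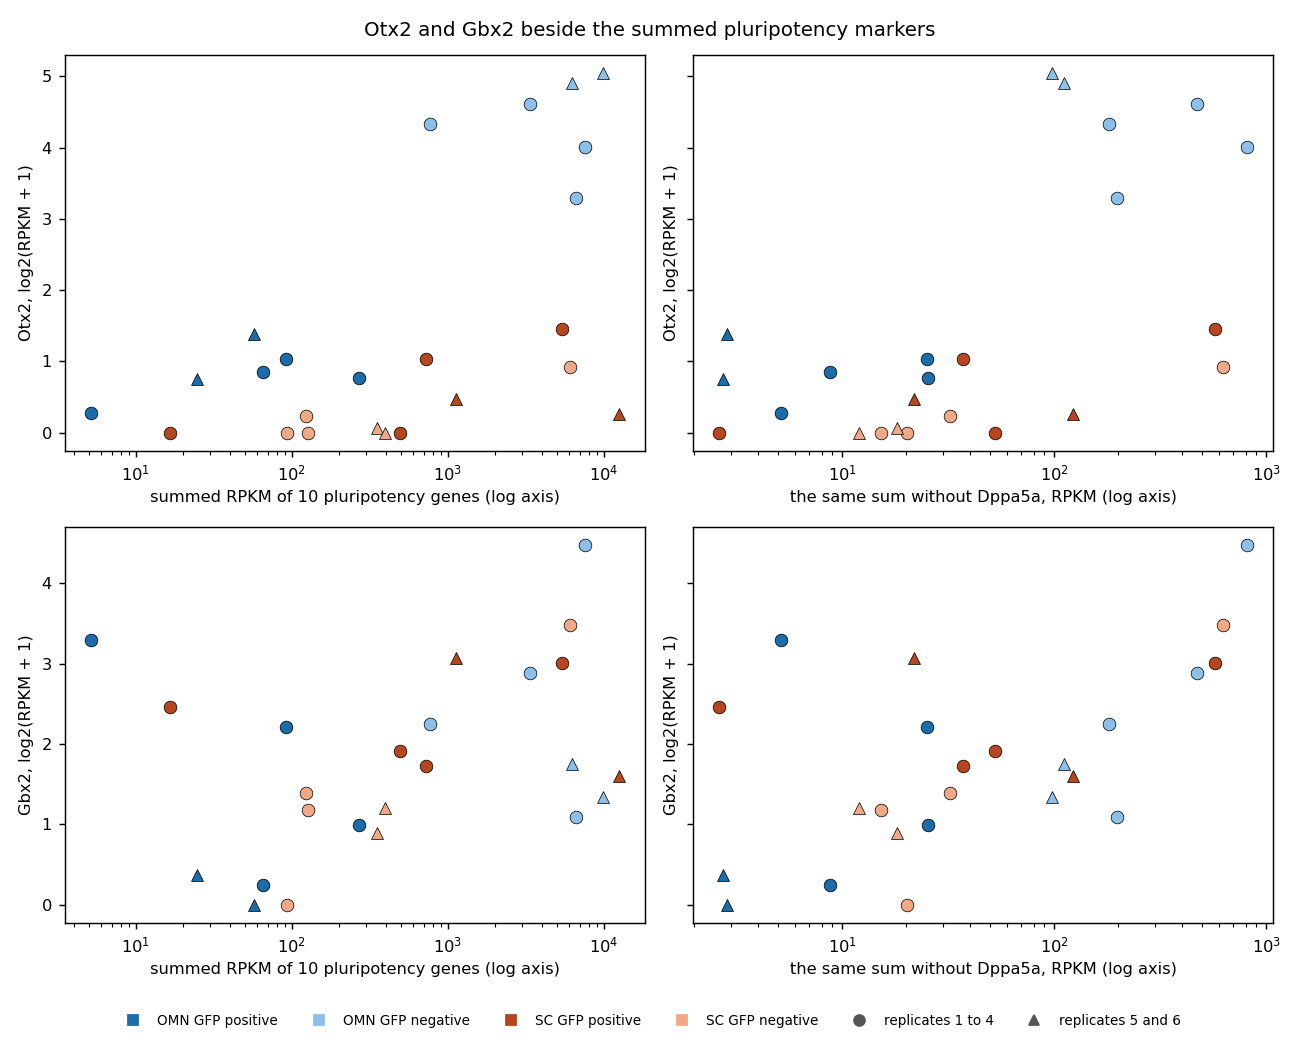
*Otx2* (top) and *Gbx2* (bottom), as log2(RPKM + 1), are plotted against the summed RPKM of 10 pluripotency and epiblast genes (left) and the same sum without *Dppa5a* (right) on log axes, 1 point per sample. OMN GFP negative samples carry 8.84 to 32.2 RPKM of *Otx2* at sums from 773 to 9903, or 97.2 to 810 without *Dppa5a*, and SC GFP positive replicate 5 moves from the largest sum, 12451, to 122.

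Other cell types that use these factors were measured in the same way. Of 11 spinal interneuron markers in the table, 10 were tested between the GFP positive groups. *Lhx1*, a LIM homeodomain factor that spinal motor neurons also use, was lower in OMN than in SC GFP positive samples (-3.12, adjusted p = 0.00117). The summed RPKM of the list was 0.789 to 3.12 in OMN GFP positive and 7.21 to 27.0 in SC GFP positive samples, and without *Lhx1* it was 0.789 to 3.12 and 1.57 to 21.8, so that the groups overlapped. Of 7 serotonergic and 8 midbrain dopaminergic markers, 6 and 7 were tested between the GFP positive groups. None was called between the cultures in either fraction, and *Fev*, a defining serotonergic factor, was listed at 0 in all OMN samples. Between fractions, *Slc18a2*, the vesicular monoamine transporter on both lists, rose in OMN cultures (2.90, adjusted p = 0.000529), *Foxa2* of the dopaminergic list fell there, and *Th* rose in SC cultures (1.99, adjusted p = 0.0412). The means of these genes moved in the same direction in the other culture, without a call. Of 8 neural crest markers, 7 were tested between the GFP positive groups, and none was called between the cultures. *Ngfr* rose from OMN GFP negative to positive cells (3.11, adjusted p = 0.00219). Of 10 progenitor markers none was called between the cultures. From OMN GFP negative to positive cells 3 fell (*Sox2*, *Hes1* and *Top2a*), where 2.34% of all genes fell. Between SC fractions all 10 had a negative change and none was called. Of 12 motor neuron markers, 9 rose from the negative to the positive fraction in OMN cultures, where 3.81% of all genes rose, and 6 in SC cultures, where 0.397% did; *Isl1* and *Mnx1*, whose reporters set the sort, are among them. Whether any of these cell types contributed to the values of the 10 factors was not tested.

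The genes whose levels ran most like each member were found by Pearson r of log2(RPKM + 1) over the 24 samples among 13546 genes, as a description that follows groups and depth. For *Otx2* they included *Kctd12b* (r = 0.896) and *Sema3e* (r = 0.894), each with its highest mean in OMN GFP negative samples. For *En1* they were *Dkk2* (0.866), *RP24-323H7.5* (0.85) and *Lmx1a* (0.844). For *Gbx2* the closest genes reached only 0.727 (*Tmem59l*) and 0.721 (*Phc1* and *Gltscr1l*), and for *Lmx1b* they were *Alg6* (0.851), *Pqlc3* (0.815) and *Zfp982* (0.81). In GRCm38 (GENCODE M21) *Otx2* lies at chr14:48657677-48673819 on the minus strand and *En1* at chr1:120602418-120607992 on the plus strand. *Gbx2* lies on the same chromosome as *En1*, at chr1:89927956-89931179 on the minus strand.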

How the data were processed

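The values were RPKM per gene in a single deposited table of 24 libraries (poly(A) RNA, SMART-seq2 with Tn5 tagmentation, no molecular identifiers). The authors mapped reads to mm10 with HISAT2 (version 2.0.3 in the submitters' notes) and computed RPKM with rpkmforgenes; the notes also name DESeq2 1.12.4, which needs counts and was not used here. The gene annotation behind the RPKM was not given in the sources used here, and positions come from GENCODE M21 (GRCm38). The 10 factors and all lists were chosen with earlier results of these data known.

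Depth was estimated from the RPKM steps of 5911 single-transcript genes, for which 95.86% to 97.82% of values of up to 10 reads were whole within 2.0%. Values were compared as log2(RPKM + 1) with limma 3.58.1 in R 4.3.3 (eBayes with trend, Benjamini-Hochberg adjustment over all genes above 0 in at least 2 fitted samples, threshold 0.05). The offset understates changes of low genes. GFP positive groups were compared in a fit of 12 samples, all else in a fit of 24. Within a culture, fractions of the same number deviated together (r = 0.379 to 0.728 in OMN and 0.421 to 0.661 in SC, over 11952 genes, in 6 of 6 pairs each). The main fits did not use this pairing, so their SE and p values are unpaired. A block for the pairs was run as an alternative. Figures and summaries used Python 3.11.15 with matplotlib 3.10.9.

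Named besides the 10 factors were up to 4 called genes per list with the largest change between cultures, the 3 genes most like each member with a group mean of at least 1 RPKM, and *Isl1*, *Mnx1* and *Phox2a*; a gene that this rule names is not reported here. The lists were organizer signals, midbrain, hindbrain, forebrain and caudal genes, and markers of motor neurons, spinal interneurons, serotonergic and dopaminergic neurons, neural crest, pluripotent cells and progenitors. Alternatives covered the offset, filters, scaling, sample weights, blocks, depth batch and samples used.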

Additional observations from a re-analysis of the deposited data

Results flagged for a closer look

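The interaction of culture and fraction for *Otx2* was -3.861 on the log2 scale, a difference between the fraction steps of the cultures that passed the test.

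In 40 groups of 6 samples (10 factors by 4 groups), the gap of 1 sample to its nearest neighbor exceeded 0.625 of the group's range on the log2(RPKM + 1) scale in 15. The nominal rate of 1 in 20 assumes normally distributed values and is no guide here: in 6 of the 15 groups the other 5 samples were listed at 0, which gives a ratio of 1.0 for any value above 0. Outside spinal pair 4, there were 7 with the sample under 1 RPKM: *En2* in OMN GFP positive replicate 2 (ratio 0.65, 0.614 RPKM) and OMN GFP negative replicate 1 (0.686, 0.487 RPKM), *Otx1* in OMN GFP positive replicate 5 (1.0, 0.029 RPKM), *Pax2* (1.0, 0.04 RPKM) and *Pax8* (1.0, 0.107 RPKM) in OMN GFP positive replicate 1, *Pax8* in OMN GFP negative replicate 1 (1.0, 0.114 RPKM), and *Egr2* in SC GFP positive replicate 6 (0.634, 0.613 RPKM).

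In spinal pair 4, whose fractions were not separated, there were 6: *Otx1* (1.0, 1.09 RPKM) and *Lmx1b* (0.764, 3.67 RPKM) in its GFP positive library, and *En1* (0.949, 1.79 RPKM), *Otx2* (0.75, 0.9 RPKM), *Pax2* (1.0, 0.391 RPKM) and *Pax5* (0.877, 0.691 RPKM) in its GFP negative library. The other 2 were *Pax2* in SC GFP positive replicate 2 (0.751, 2.62 RPKM) and *Egr2* in SC GFP negative replicate 3 (0.805, 4.69 RPKM).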

How the results depend on the processing

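*Otx2* kept its direction and its call under every alternative run: 35 in OMN against SC GFP negative samples (3.78 to 6.74), 36 in the OMN fraction step (-4.56 to -3.34) and 34 in the interaction (-5.61 to -3.67, adjusted p up to 0.0418 in replicates 1 to 4). None of the 10 was called in OMN against SC GFP positive samples or between the SC fractions under any alternative run. In OMN against SC GFP negative samples the count of members called was 2 in place of 1, *En1* being added, with an offset of 0.1 RPKM, a mean of at least 0.5 RPKM, a replicate block, a term for replicates 5 and 6, or without spinal pair 4; leaving out single samples gave 1 to 2, the 2 without OMN GFP negative replicate 1 or without SC GFP negative replicate 4. Without spinal pair 4 and SC GFP negative sample 2, an alternative chosen after seeing the data, it was 1. With sample weights 3 members were called in the OMN fraction step (*Otx1*, *Otx2* and *Gbx2*).

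The replicate block moved the genes called from 1364 to 3644 in the OMN fraction step (16.4%), from 272 to 649 between SC fractions (2.93%) and from 71 to 453 in the interaction (2.04%), and changed no call of the 10 there. Between the cultures the labels of samples share only a number, but replicates 5 and 6 also deviated together. Their correlations were 0.707 and 0.6 in GFP positive and 0.612 and 0.572 in GFP negative samples. In replicate 3 they were 0.356 and 0.437, and in replicates 1, 2 and 4 they lay between -0.175 and 0.129. What replicates 5 and 6 shared was not tested. The block moved the genes called between the cultures from 116 to 73 (GFP positive) and from 213 to 563 (GFP negative).

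Changes of sign concerned values that passed no test. *Lmx1b* in OMN against SC GFP negative samples was 0.132 without spinal pair 4, 0.169 without that pair and SC GFP negative sample 2, and -0.287 to 0.132 when single samples were left out. *Otx1* was -0.009 there in replicates 1 to 4. Between SC fractions *Otx1* was -0.07 with an offset of 0.1 RPKM, -0.059 without pair 4, -0.036 without that pair and SC GFP negative sample 2, and -0.096 (without SC GFP positive replicate 4) to 0.118 when single samples were left out. In the OMN fraction step *En1* was 0.021 in replicates 1 to 4, and *En2* -0.016 with sample weights and -0.077 (without OMN GFP positive replicate 2) to 0.119 when single samples were left out. The interaction of *Lmx1b* ranged from -0.533 to 0.033 (without SC GFP positive replicate 4) when single samples were left out. The causes were not tested. Factors under about 1 RPKM rest on few reads in replicates 1 to 4.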
